A study of Mus musculus with 6 samples.

Results

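The RNA of 3 Foxo1TKO and 3 Foxo1Ctrl cultures was used to describe 10 genes of granule killing and of its inhibition, namely the granzymes Gzma, Gzmb and Gzmk, perforin (Prf1), the clade B serpins Serpinb1a, Serpinb6a, Serpinb6b and Serpinb9, and the cysteine protease inhibitors Ctla2a and Ctla2b. The genes were taken by symbol as a family of function, with no threshold on a measured value. All 10 were among the 55487 genes of the count files, and 9 had a row in the deposited table of normalized signal, which holds 13564 genes. Gzmk was the gene without a row. Both genotypes were on the C57BL/6J background and carried floxed Foxo1 alleles. Foxo1TKO mice (CD4cre Foxo1 fl/fl) also expressed a Cre recombinase driven by CD4, which deletes Foxo1 from the CD4+CD8+ stage of the thymus onwards, hence in CD4 and CD8 T cells alike, whereas Foxo1Ctrl mice (Foxo1 fl/fl) carried no Cre. In both groups, naive CD4 T cells (CD4N cells) sorted from lymph nodes of young adult mice were activated during 4 days by soluble anti-CD3 (0.1 µg/ml) together with 250000 splenocytes of C57BL/6 CD3eKO mice, which lack T cells but keep their B, NK and myeloid cells. The labels give 50000 CD4N cells per culture, a number that differs from the one in the methods, and neither source says whether the splenocytes were removed before RNA extraction or whether the 3 libraries of a genotype came from separate mice, so that p-values measure the spread between these libraries only.

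Cytotoxic lymphocytes kill by releasing granules. Perforin opens a path through membranes, and granzymes, which are serine proteases, enter the target cell and cleave proteins there. Granzymes can also leak into the cell that made them, and intracellular serpins of clade B are the suicide inhibitors that trap such proteases. CTLA-2α and CTLA-2β, first known from activated T cells and mast cells, resemble the propeptide of cathepsin L-like cysteine proteases and inhibit enzymes of that family. In CD4 T cells, granzymes and perforin are known from cytotoxic and regulatory subsets.

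The libraries held between 14783890 and 19675447 expected counts. Counts were normalized by the TMM method, edgeR's quasi-likelihood test was applied to the 13691 genes that reached 10 counts in 3 or more libraries, and a gene was called when its Benjamini-Hochberg adjusted p over all genes tested was under 0.05 and its fold change over 1.5. The genotypes separated on the first principal component, which held 66.7% of the variance. Foxo1 itself, the deleted gene, fell by 4.45 on the log2 scale (SE 0.36, edgeR adjusted p = 0.000195), from between 1529 and 2285 normalized counts in Foxo1Ctrl libraries to between 46.5 and 114.8 in Foxo1TKO libraries.

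Expression of the killing and inhibitor genes was lower in Foxo1TKO cultures for 4 of the 9 genes tested, and was called higher for none. The genes called were Gzmb, Serpinb1a, Ctla2a and Ctla2b, and their levels fell between 5.32-fold and 27.1-fold. Among all genes tested, 23.0% were called, 11.8% as lower and 11.1% as higher in Foxo1TKO libraries. The values of both genotypes did not overlap for 6 of the 9 genes, in each case with Foxo1TKO libraries lower, and the genes without overlap that were not called were Serpinb6a and Serpinb9. Among all genes tested, 42.7% did not overlap, 21.2% with Foxo1TKO libraries lower. Gzma, Prf1 and Serpinb6b had overlapping values. The median log2 fold change of the 9 genes was -0.49. As each library holds RNA pooled from many cells, fewer cells expressing a gene and less RNA per cell cannot be told apart.

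**Figure D1:**
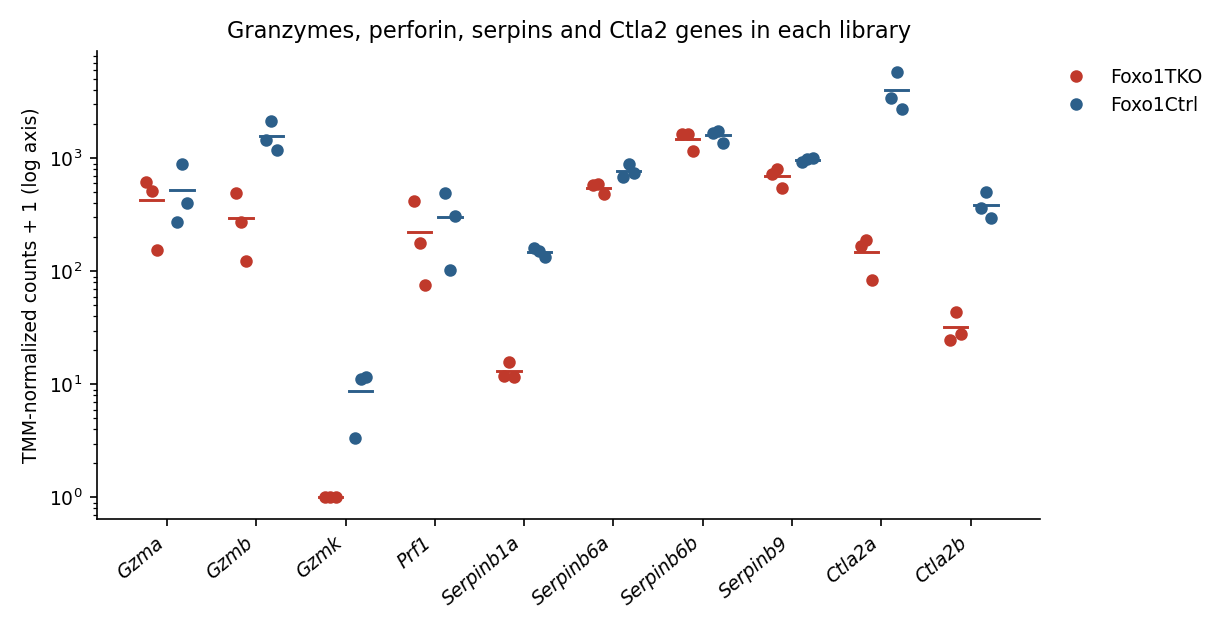
TMM-normalized counts plus 1 (log axis) of the 10 genes in each of the 3 Foxo1TKO and 3 Foxo1Ctrl libraries, with a bar at each genotype's mean. All Foxo1TKO points of Gzmb, Serpinb1a, Ctla2a and Ctla2b lie below all Foxo1Ctrl points, those of Gzma and Prf1 are spread over the range of the other genotype, and Gzmk had 0 counts in every Foxo1TKO library.

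Among the proteases, Gzmb, the granzyme that cleaves after aspartate and activates caspases, was called lower. It had 493.6, 272.9 and 122.3 normalized counts in Foxo1TKO replicates 1, 2 and 3, and 1440, 2124 and 1191 in Foxo1Ctrl replicates 1, 2 and 3. Every Foxo1TKO library was thus below every Foxo1Ctrl library, and the Foxo1TKO libraries differed more among themselves (coefficient of variation, CV, 63.0%) than the Foxo1Ctrl libraries (30.5%). Gzmb expression fell by 2.41 on the log2 scale (SE 0.47, 95% confidence interval -3.51 to -1.32, edgeR adjusted p = 0.00888), a 5.32-fold lower level. It was called with each library left out in turn, with the adjusted p reaching 0.0486 without Foxo1TKO replicate 2.

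The stretch before the RefSeq start of Gzmb is shown because the gene changed and because it can be set beside those of the Ctla2 genes given further on. These are the 250 bases at chr14:56262335-56262584 (GRCm38.p6, minus strand, RefSeq), read 5′ to 3′, with an AP-1 motif (TGANTCA) at -58 and a Runx motif (TGTGGTT) at -34, counted from the start, in capitals.
Gzmb: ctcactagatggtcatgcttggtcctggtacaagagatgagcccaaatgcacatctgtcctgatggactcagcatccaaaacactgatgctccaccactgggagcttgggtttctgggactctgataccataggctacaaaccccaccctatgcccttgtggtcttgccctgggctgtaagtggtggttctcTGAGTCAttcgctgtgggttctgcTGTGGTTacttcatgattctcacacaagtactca
The RefSeq start used here lies upstream of the start of the GENCODE gene model (chr14:56258838-56262260). The letters searched on both strands were GTAAACA (forkhead), TGTGGTT (Runx), TGANTCA (AP-1) and TCACACC (T-box), and they occurred in 3.17%, 4.4%, 6.75% and 3.33% of the 32851 RefSeq promoter windows of this length. A match of letters is a description and not a bound site.

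Gzma, a tryptase of the same granules, had 612.7, 514.2 and 152.4 normalized counts in the Foxo1TKO libraries against 273.0, 895.4 and 399.2 in the Foxo1Ctrl libraries. The genotypes overlapped, since the highest and the lowest values of each lay on both sides of the other's median. The log2 fold change was -0.29 (SE 0.57, edgeR adjusted p = 0.754), and its 95% confidence interval, from -1.6 to 1.02, leaves room for a change in either direction. The window before Gzma holds the Runx letters at -51.

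Gzmk, a further granzyme, whose gene neighbours Gzma on chromosome 13, was near the limit of detection. It had 0 counts in each Foxo1TKO library and 2, 9 and 11 counts in the Foxo1Ctrl libraries, that is 0 against 22 counts in all. It did not pass the filter on low counts and was not tested. The Foxo1Ctrl mean was 2.59-fold above the 3 counts per library that a count of 0 allows. This ratio leaves out the error of that mean, and Foxo1Ctrl replicate 1, at 2 counts, lay under the 3 counts. Gzmk overlaps the gene Esm1 on the opposite strand, and the sources used here do not say whether counting used the strand.

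Prf1, which encodes the pore-forming protein, had 415, 178.1 and 75.12 normalized counts in Foxo1TKO libraries and 494.8, 102.9 and 309.1 in Foxo1Ctrl libraries. Each genotype thus held a library with few and a library with many Prf1 reads. The log2 fold change was -0.43 (SE 0.68, 95% confidence interval -2.0 to 1.13, edgeR adjusted p = 0.69). Prf1 had the highest GC content among the 10 genes (54.4%, against 42.1% to 49.7% for the others), and the trend of counts with GC content differed between libraries, from -0.398 to 0.345 on the log2 scale per 10 points of GC content. With a correction for GC content, the log2 fold change of Prf1 was -0.52 (adjusted p = 0.553).

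The spread within a genotype was large for the genes of granule contents and small for most serpins. The CV was 56.8% in Foxo1TKO and 63.0% in Foxo1Ctrl libraries for Gzma, and 78.2% and 64.9% for Prf1, whereas it ran from 10.9% to 18.8% and from 5.0% to 14.2% for Serpinb6a, Serpinb6b and Serpinb9. For Ctla2a it was 38.4% in Foxo1TKO and 40.1% in Foxo1Ctrl libraries, and for Ctla2b 33.3% and 27.5%. Over the 9235 genes whose mean reached 100 normalized counts, the median CV was 15.4% in Foxo1TKO and 18.9% in Foxo1Ctrl libraries, and 2.66% and 1.21% of these genes varied as much as Gzma or more. Foxo1TKO replicate 3 had the lowest value of its genotype for 8 of the 9 genes tested, Ctla2b being the exception, and for 37.3% of all genes tested. Leaving it out did not change which of the 9 genes were called.

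**Figure D2:**
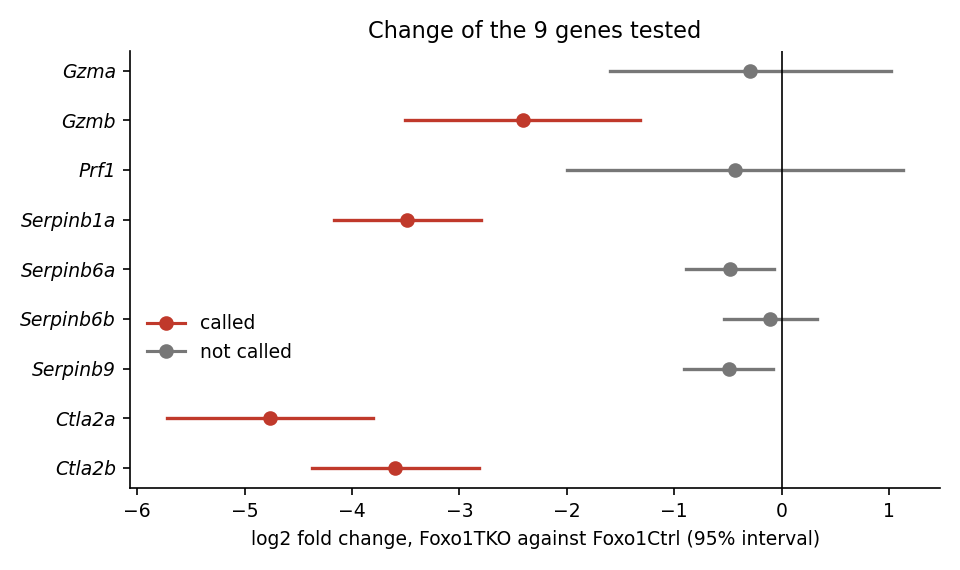
Log2 fold change of the 9 genes tested, Foxo1TKO against Foxo1Ctrl (points), with 95% confidence intervals (lines) from edgeR. The 4 genes called (red) lie between -4.76 and -2.41, and the intervals of Gzma, Prf1 and Serpinb6b (grey) cross 0.

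Among the serpins, Serpinb1a, an inhibitor of neutrophil-type serine proteases, was the gene called lower. It had 10.99, 14.92 and 10.73 normalized counts in Foxo1TKO libraries against 159.8, 149.8 and 132.7 in Foxo1Ctrl libraries. The values were tight within each genotype and far apart between them. Serpinb1a fell by 3.49 on the log2 scale (SE 0.30, 95% confidence interval -4.17 to -2.8, edgeR adjusted p = 0.00021), an 11.2-fold lower count. The effective length that RSEM gave to Serpinb1a, which follows the mix of transcripts it assigned reads to, ran from 752.6 to 1253.2 bases in Foxo1TKO libraries and from 1383.2 to 1747.8 bases in Foxo1Ctrl libraries, on as few as 10 reads in a Foxo1TKO library. With this length as an offset in edgeR, the log2 fold change was -2.92 (adjusted p = 0.000827).

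Serpinb6a, known as an inhibitor of several granule proteases, had 578.9, 589.6 and 480.8 normalized counts in Foxo1TKO libraries and 677.2, 888.6 and 737.3 in Foxo1Ctrl libraries. All Foxo1TKO values were lower, but the log2 fold change of -0.48 (SE 0.18, 95% confidence interval -0.89 to -0.07) did not pass the test (edgeR adjusted p = 0.0892). Serpinb6a overlaps Nqo2 and the antisense RNA 1110046J04Rik on the opposite strand, and without strand their reads cannot be told apart.

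Serpinb9, the mouse inhibitor of granzyme B that protects killer cells from their own protease, had 727.7, 797.5 and 551.6 normalized counts in Foxo1TKO libraries and 921.7, 989.2 and 1015 in Foxo1Ctrl libraries. The genotypes did not overlap. The log2 fold change was -0.49 (SE 0.18, 95% confidence interval -0.91 to -0.08), and the edgeR adjusted p was 0.0849, above the threshold.

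Serpinb6b, a paralog of Serpinb6a described as an inhibitor of granzyme A, had 1644, 1647 and 1162 normalized counts in Foxo1TKO libraries against 1662, 1761 and 1378 in Foxo1Ctrl libraries. Its values overlapped, and the log2 fold change was -0.11 (SE 0.19, 95% confidence interval -0.54 to 0.33, edgeR adjusted p = 0.723). The ratio of Serpinb1a to Serpinb6b TPM (a level scaled to transcript length and library), examined after the values were seen, was 0.0091, 0.0143 and 0.0215 in Foxo1TKO libraries and ran from 0.0968 to 0.107 in Foxo1Ctrl libraries, so that these serpin genes of one locus did not move in step.

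The 4 serpin genes lie within 1160.7 kb of chromosome 13 (GRCm38, GENCODE M21). Serpinb1a is at chr13:32842092-32851185 on the minus strand, Serpinb6b at chr13:32965209-32979067 and Serpinb9 at chr13:33003250-33017957 on the plus strand, and Serpinb6a at chr13:33917918-34002794 on the minus strand. Of the 40 annotated genes of the region, 17 were protein-coding and 9 genes were tested, of which Serpinb1a alone was called lower and Serpinb9b, a paralog of Serpinb9, alone was called higher. Serpinb9b had 404.0, 324.6 and 222.1 normalized counts in Foxo1TKO libraries against 79.89, 85.77 and 68.79 in Foxo1Ctrl libraries, a rise of 2.01 on the log2 scale (SE 0.28, edgeR adjusted p = 0.00187). Serpinb9b starts 185.3 kb from the start of Serpinb1a, and Serpinb9 161.2 kb from it. With counts of Serpinb9 and its paralogs summed, the log2 fold change was -0.06 (SE 0.19, adjusted p = 0.843), and with those of Serpinb6a and Serpinb6b summed it was -0.22 (SE 0.17, adjusted p = 0.411). Exact runs of 50 bases shared with other genes made up 2.81% of the Serpinb1a transcripts, 2.92% of those of Serpinb6b, 0.751% of those of Serpinb6a and 0.378% of those of Serpinb9.

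**Figure D3:**
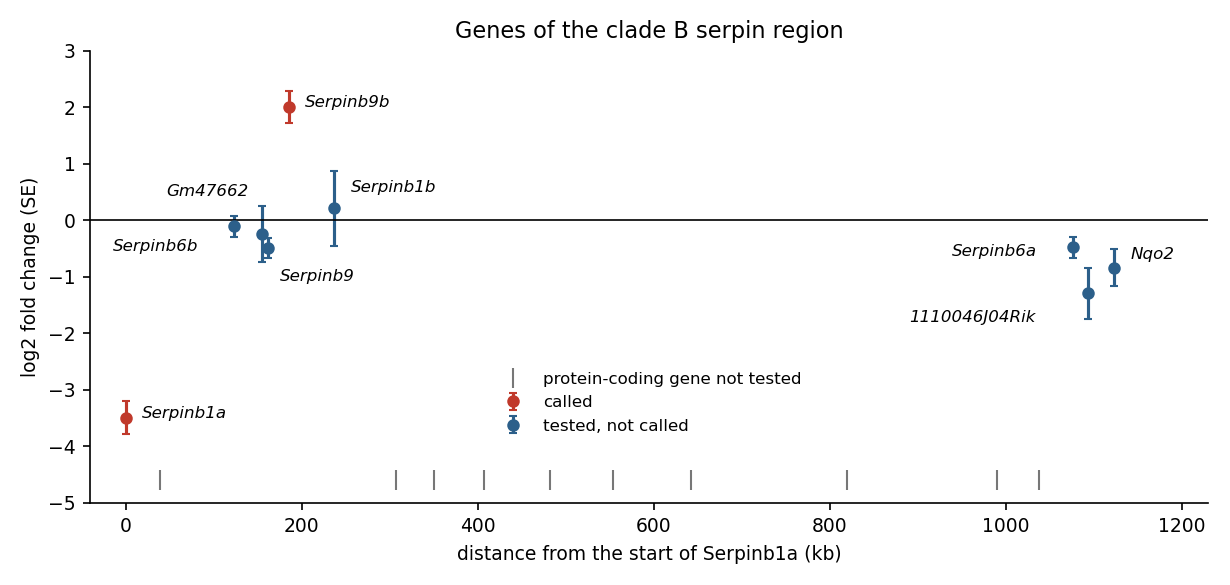
Log2 fold change with its SE (points with bars) of the 9 genes tested in the clade B serpin region, by distance in kb of a gene from the start of Serpinb1a, with ticks at the bottom for protein-coding genes not tested. Serpinb1a (-3.49) and Serpinb9b (2.01) were called, and the other 7 lie between -1.29 and 0.21.

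Both Ctla2 genes were called lower. Ctla2a had 167.3, 188.6 and 82.64 normalized counts in Foxo1TKO libraries and 3420, 5809 and 2762 in Foxo1Ctrl libraries. The highest Foxo1TKO library was far below the lowest Foxo1Ctrl library. Ctla2a fell by 4.76 on the log2 scale (SE 0.42, 95% confidence interval -5.72 to -3.8, edgeR adjusted p = 0.000265), that is 27.1-fold, and ranked 56 by size of the fall among the 1619 genes called lower.

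Ctla2b had 23.66, 42.99 and 26.83 normalized counts in Foxo1TKO libraries against 363.7, 505.5 and 296.5 in Foxo1Ctrl libraries. These values did not overlap either. Ctla2b fell by 3.6 on the log2 scale (SE 0.34, 95% confidence interval -4.37 to -2.82, edgeR adjusted p = 0.000343), a 12.1-fold lower level that ranked 152 among the genes called lower. The ratio of Ctla2a to Ctla2b TPM, examined after the values were seen, was 9.25, 6.62 and 3.9 in Foxo1TKO libraries and 12.8, 16.9 and 13.6 in Foxo1Ctrl libraries.

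Ctla2a (chr13:60934155-60936625) and Ctla2b (chr13:60895350-60897447) lie on the minus strand of the same locus, and the stretches before their starts are shown because the genes moved together and resemble each other there. The lines give the 250 bases before the RefSeq starts (GRCm38.p6, minus strand), at chr13:60936626-60936875 for Ctla2a and chr13:60897448-60897697 for Ctla2b, read 5′ to 3′, with the AP-1 motif TGACTCA in capitals.
Ctla2a: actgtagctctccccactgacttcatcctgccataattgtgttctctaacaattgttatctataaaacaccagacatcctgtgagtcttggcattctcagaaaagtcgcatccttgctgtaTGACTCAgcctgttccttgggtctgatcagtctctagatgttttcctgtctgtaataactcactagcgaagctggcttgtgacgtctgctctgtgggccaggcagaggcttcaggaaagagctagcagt
Ctla2b: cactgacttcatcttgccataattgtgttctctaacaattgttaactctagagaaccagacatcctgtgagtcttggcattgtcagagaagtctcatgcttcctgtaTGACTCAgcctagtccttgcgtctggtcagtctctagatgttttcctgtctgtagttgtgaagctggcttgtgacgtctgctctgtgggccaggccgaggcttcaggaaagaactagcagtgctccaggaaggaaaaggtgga
Over 228 aligned bases, 208 were identical (91.2%). The AP-1 motif lay at -129 from the start of Ctla2a used here, at -188 from a second RefSeq start of that gene, and at -143 from that of Ctla2b, within the shared stretch. RefSeq promoter windows were at hand for 9 of the 10 genes, all but Serpinb1a. The AP-1 letters were found in those of Gzmb, Ctla2a and Ctla2b and in none of the other 6 genes, and the forkhead letters GTAAACA were found in none, which says only that these letters are not in these windows.

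Reads of the Ctla2 genes can be shared. Of the exact runs of 50 bases in their transcripts, 25.5% of those of Ctla2a and 69% of those of Ctla2b also occurred in another gene, chiefly in each other, in Gm49392 and in Gm49391, a readthrough gene annotated over both (chr13:60895350-60936571). The expected counts of both genes were not whole numbers, since RSEM splits reads that fit several genes. Gm49391 fell by 4.26 on the log2 scale (SE 0.35, edgeR adjusted p = 0.000191). With the counts of Ctla2a and Ctla2b summed, expression fell by 4.62 on the log2 scale (SE 0.39, adjusted p = 0.000232), and with Gm49391 and the overlapping Gm49393 added it fell by 4.60 (SE 0.38, adjusted p = 0.000215). Gm49392 and other genes that share shorter stretches with Ctla2a were not in these sums, so that both the separate and the summed folds depend on how reads were assigned. All 3 genes tested in this locus of 83.4 kb were called lower.

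The order of the levels per length differed between the genotypes. By mean TPM, Ctla2a was first in Foxo1Ctrl libraries at 417 ± 118 (SD, n = 3), above 97.0% of the genes tested, followed by Gzmb at 78.5 ± 15.3, Serpinb6b at 60.3 ± 7.31, Gzma at 44.9 ± 23.1, Serpinb6a at 38.7 ± 2.03, Ctla2b at 28.5 ± 4.75, Serpinb9 at 19.4 ± 2.02, Prf1 at 9.1 ± 6.35, Serpinb1a at 6.19 ± 1.06 and Gzmk at 0.59 ± 0.337. The libraries of neighbours in this order overlapped from Gzmb down to Serpinb6a and between Prf1 and Serpinb1a, and did not overlap elsewhere. In Foxo1TKO libraries, Serpinb6b was first at 58.3 ± 15.4 TPM, followed by Gzma at 41.0 ± 25.3, Serpinb6a at 30.8 ± 4.38, Ctla2a at 16.7 ± 7.1, Gzmb at 16.1 ± 11.3, Serpinb9 at 14.4 ± 3.36, Prf1 at 6.89 ± 5.94, Ctla2b at 2.52 ± 0.58 and Serpinb1a at 0.81 ± 0.148. Neighbours overlapped in this genotype except between Serpinb6a and Ctla2a, between Ctla2b and Serpinb1a, and below Serpinb1a. Ctla2a stood above 60.3% of the genes tested in Foxo1TKO libraries.

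**Figure D4:**
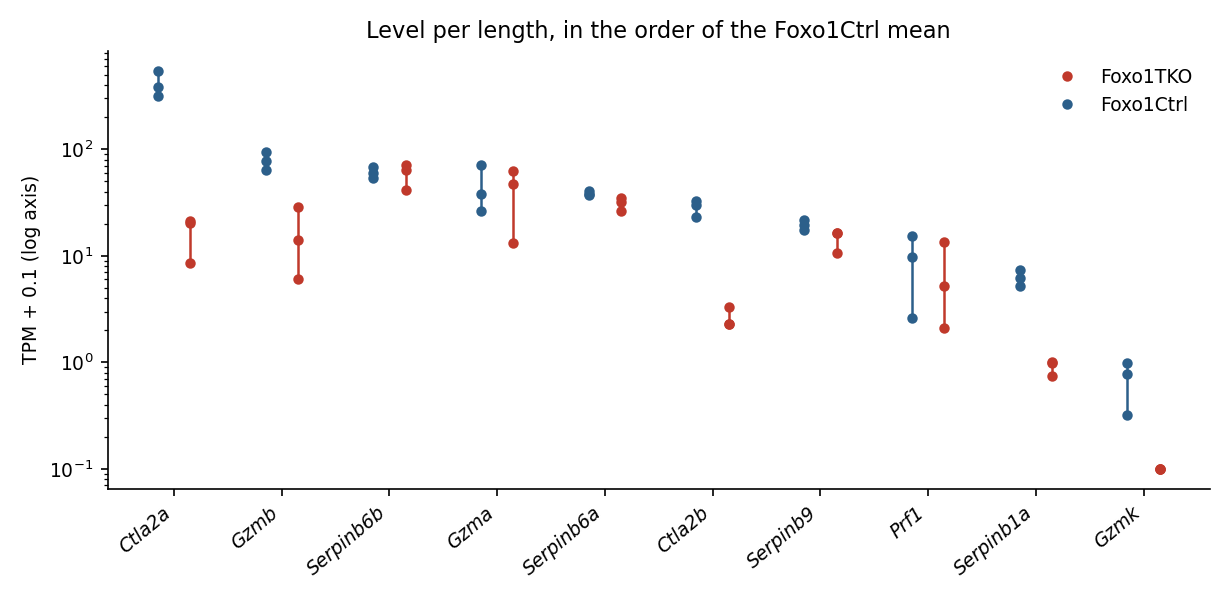
TPM plus 0.1 (log axis) of the 10 genes in each library, ordered by the mean of the 3 Foxo1Ctrl libraries (blue) with Foxo1TKO libraries beside them (red), and lines from the lowest to the highest library. Ctla2a went from 417 to 16.7 and Gzmb from 78.5 to 16.1 on average, while Serpinb6b was at 60.3 and 58.3.

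Ratios of a protease to an inhibitor within a library do not depend on its depth. The ratio of Gzmb to Serpinb9 TPM was 1.72, 0.869 and 0.564 in Foxo1TKO libraries and 3.97, 5.45 and 2.99 in Foxo1Ctrl libraries. The genotypes did not overlap, and the mean log2 ratio was -0.08 ± 0.81 (SD, n = 3) against 2.0 ± 0.43. The difference of -2.09 had an exact two-sided permutation p of 0.1, the smallest that 3 against 3 libraries can give. For Gzma to Serpinb6b, the log2 difference was -0.21 (exact permutation p = 0.8), with overlapping ratios of 0.321 to 0.891 in Foxo1TKO and of 0.383 to 1.18 in Foxo1Ctrl libraries. For Ctsl, which encodes cathepsin L, the type of protease CTLA-2α inhibits, the ratio to Ctla2a was 0.257, 0.212 and 0.505 in Foxo1TKO libraries and between 0.0168 and 0.0257 in Foxo1Ctrl libraries, a log2 difference of 3.91 (exact permutation p = 0.1). The ratio of Gzmb to Gzma, examined after the values were seen, ran from 0.298 to 0.452 in Foxo1TKO libraries and from 1.34 to 2.97 in Foxo1Ctrl libraries.

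Around these genes, other genes of the same functions moved in both directions. Of the 7 other granzymes listed, Gzmc was the one tested. It sits next to Gzmb in the granzyme cluster of chromosome 14 and fell by 1.36 on the log2 scale (SE 0.39, edgeR adjusted p = 0.0366), a call that was kept without Foxo1TKO replicate 1 and lost with any of the other 5 libraries left out. Gzmd of the same cluster was not tested, with 14, 9 and 6 counts in Foxo1TKO libraries and 1, 1 and 0 in Foxo1Ctrl libraries. Its Foxo1TKO mean was 2.91-fold above 3 counts per library, with the error of that mean left out. Of 19 genes of granule loading and exocytosis, all tested, 3 were called higher and 4 lower. The higher ones were Nkg7 (log2 fold change 2.17), a granule membrane protein, Ap3b1 (2.10), an adaptor subunit for sorting to lysosomes, and Stx11 (1.57), a syntaxin of granule fusion. The lower ones included Lyst (-1.88), the Chediak-Higashi gene, and the synaptotagmin-like genes Sytl1 (-1.75) and Sytl2 (-1.63), with the proteoglycan gene Srgn at -0.72. Sytl1 was no longer called without Foxo1Ctrl replicate 1 or 3 or Foxo1TKO replicate 2 or 3, Sytl2 without Foxo1TKO replicate 2, and Srgn with any library but Foxo1Ctrl replicate 3 left out, with edgeR scaled by upper quartiles or by the size factors of DESeq2 (adjusted p = 0.0536 in both) and in limma on the deposited signal (adjusted p = 0.0542).

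Among the cysteine cathepsins, the enzymes that CTLA-2 proteins resemble or that process granzymes, 1 of the 9 tested was called higher and 3 lower. Ctsc, whose product removes the propeptide of granzymes, fell by 1.25 on the log2 scale, from between 3988 and 5150 to between 1757 and 2010 normalized counts (SE 0.16, edgeR adjusted p = 0.00128). Ctsl fell by 1.4 (SE 0.29, edgeR adjusted p = 0.0111), a call lost without Foxo1TKO replicate 2, with effective lengths as an offset (-0.91, adjusted p = 0.0551) and in limma on the deposited signal (-0.86, adjusted p = 0.0718). Ctsf fell by 5.09 (SE 0.62, edgeR adjusted p = 0.00102). Ctsw, a cathepsin of cytotoxic cells, rose by 0.98 (SE 0.21, edgeR adjusted p = 0.0133). None of the 4 cystatins and stefins tested was called. Among the other clade B serpins, 15 of the 23 in the count files were listed at 0 TPM in every library and 3 were tested, of which Serpinb9b and Serpinb5 were called higher. Serpinb5 had at most 1 count in a Foxo1Ctrl library, and its Foxo1TKO mean was 11.1-fold above 3 counts per library. Among serpins of other clades, Serpine2, an inhibitor of thrombin and plasminogen activators, rose by 3.34 and Serpina3f fell by 1.75, out of 6 tested.

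Of 11 genes of killing through death receptors, 6 were called higher and none lower. The higher genes were led by Tnfsf10 (TRAIL, log2 fold change 2.07), Tnf (1.16) and Lta (1.07). With 1 library left out, the number called higher ran from 2 to 5, with Tnf not called without Foxo1Ctrl replicate 3 or Foxo1TKO replicate 2, and Lta called without Foxo1TKO replicate 3 but not with any other library left out. Fasl, the ligand of Fas, was at -0.66 (SE 0.26, edgeR adjusted p = 0.106) and was called lower without Foxo1Ctrl replicate 1, and Casp8 was at -0.55 (SE 0.15, edgeR adjusted p = 0.0324), under the fold limit. Of the 9 regulators of cytotoxic cells tested, 3 were called higher and 3 lower. The transcription factor genes Zeb2 (3.8) and Eomes (2.26) and the adhesion receptor gene Crtam (3.6) rose, whereas Prdm1, which encodes Blimp-1 (-4.08), Hopx (-2.16) and Runx3 (-1.21) fell. These lists were chosen with earlier results of these data known, and their counts are descriptions. Among all genes tested, 11.1% were called higher and 11.8% lower, the shares beside which each list count stands.

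**Figure D5:**
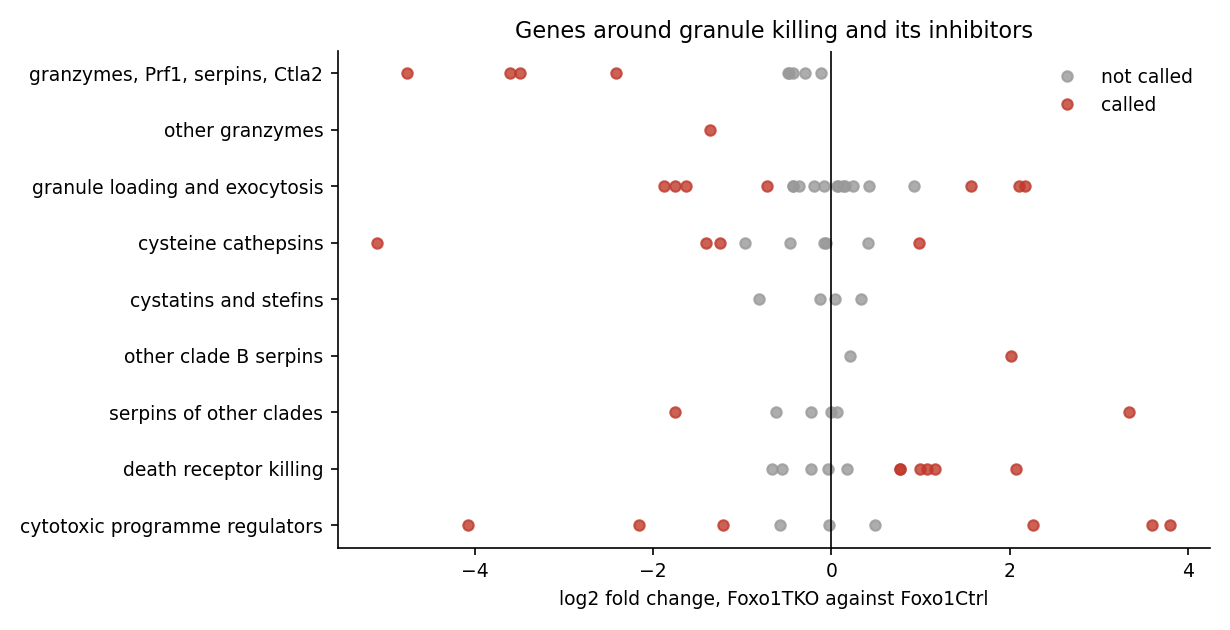
Log2 fold changes, Foxo1TKO against Foxo1Ctrl, of the genes tested in each list (points), red where called, with the 9 genes described above in the top row. Calls lie on both sides of 0 for granule loading, cathepsins, serpins of other clades and cytotoxic regulators. They lie only above 0 for death receptor killing and other clade B serpins, and below 0 for the 1 other granzyme tested. Serpinb5 is left out as its Foxo1Ctrl libraries held at most 1 count.

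Markers of other cell types were read beside these genes. Of 10 T cell markers, none was called higher and 2 were called lower. Among 14 NK cell markers, the receptor gene Klrd1, also found on activated T cells, was the highest and fell by 2.37 on the log2 scale (SE 0.23, edgeR adjusted p = 0.000399). Of the 9 NK cell markers tested, 2 were called higher, Eomes (2.26) and Cd244a (2.15), and 2 lower, Klrd1 and Klrk1 (-1.06), with a median log2 fold change of 0.15, and the summed list was at 157.4 to 250.4 TPM in Foxo1TKO and 475.3 to 620.7 TPM in Foxo1Ctrl libraries. Among the 14 NK cell markers, 6 had a mean under 1 TPM over all libraries. Klra8 was at 0 in every library, Ncr1 at most at 0.62 TPM and Tyrobp at most at 1.83 TPM, all named after their values were seen. B cell markers fell in Foxo1TKO libraries for 6 of the 9 tested, with a summed list of 219.6 to 317.6 TPM against 521.8 to 1046 TPM, Ighm being the highest. With 1 library left out, the number of B cell markers called lower ran from 3 to 6. Of the 10 listed, 5 had a mean under 1 TPM over all libraries. Mast cell and basophil markers were called higher for both genes tested, with Kit as the highest and a summed list of 35.89 to 65.43 TPM against 9.05 to 13.97 TPM, while Mcpt4, Cma1, Fcer1a and Tpsb2 were at 0 in every library. Among dendritic cell markers, 1 of the 3 tested was called higher, Itgax, with a Foxo1TKO mean 138-fold above 3 counts per library. The dendritic cell list summed to 10.43 to 11.04 TPM in Foxo1TKO and 2.11 to 4.43 TPM in Foxo1Ctrl libraries. Itgax was the highest gene of this list, and 6 of its 8 genes had a mean under 1 TPM over all libraries. Of 11 proliferation markers, 4 were called higher and none lower, with Pcna as the highest. With 1 library left out, the number called higher ran from 1 to 4. By dilution of a dye, a different measure, the paper found reduced proliferation of Foxo1-deficient cells in such cultures. Neutrophil markers, whose cells are known for Serpinb1a, summed to 1.31 to 8.33 TPM in Foxo1TKO and 0 to 0.31 TPM in Foxo1Ctrl libraries, and macrophage and monocyte markers to 4.78 to 6.6 and 2.81 to 4.76 TPM. Cd8a was at most at 0.67 TPM. The part of these cells in the values of Gzmb, Serpinb1a, Ctla2a and Ctla2b was not tested.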

How the data were processed

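RNA-seq of 3 Foxo1TKO and 3 Foxo1Ctrl cultures was used, with genotype and replicate number as in the sample titles. For each library the authors deposited unnormalized expected counts from RSEM, TPM and effective lengths, made with STAR 2.7.6a on Ensembl GRCm38 release 101 and RSEM 1.3.1 which used reads with 1 to 10 mapping loci. Trimming and strand setting are not given in the sources used here. The normalized signal that they deposited for all libraries together equals rounded expected counts scaled by DESeq2 size factors and relative effective lengths (within 1% for 100% of values above 0).

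Expected counts were rounded (9.48% were not whole), normalized by TMM and tested with edgeR 4.0.16 (R 4.3.3, glmQLFit with prior count 1, genotype as the only term). Intervals are 95% confidence intervals, and the floor for a count of 0 is 3 counts. Ratios of TPM were compared by an exact two-sided permutation test over libraries. Positions came from GENCODE M21, which holds 13679 of the 13691 genes tested, and promoters from RefSeq (GRCm38.p6). Exact runs of 50 bases shared between transcripts were counted in GENCODE M21. Alternatives were DESeq2 1.42.0, limma 3.58.1 (voom, and log2 of the deposited signal plus 1), other scalings, filters and thresholds, and effective lengths as an offset. Paralog counts summed, a replicate block and each library left out were further alternatives. DESeq2 is the tool of the authors, run here in a later version and on rounded counts without effective lengths. A GC correction, alone and with the block, and the Ctla2 locus with its readthrough genes summed were added after seeing the data. The tests were tried on simulated data with 200 genes changed, far fewer than the 3144 called here. No statement above rests on that trial.

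The genes and lists were chosen with earlier results of these data known. Genes named beside them are, by rule, up to 3 called genes of largest change in each direction per list, Foxo1, Ctsl, the highest marker of a list, and paralogs of a shared locus. Esm1, Nqo2, 1110046J04Rik, Gm49392, Srgn, Gzmd, Fasl, Casp8, Cd8a, the NK cell markers called and the NK and mast cell markers at or near 0 were named after their values were seen. The figures used matplotlib 3.10.9.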

Additional observations from a re-analysis of the deposited data

How the results depend on the processing

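The 4 genes called lower, Gzmb, Serpinb1a, Ctla2a and Ctla2b, were called in the same direction under every alternative run, and the number called was 4 in each but one. Without a filter on low counts it was 5, as Gzmk was then called too (adjusted p = 0.0188), and Gzmd was called higher (adjusted p = 0.0465). The calls over all genes ran from 3011 to 3694 across tools, scalings, filters, GC correction and effective lengths, with DESeq2 highest, and from 1854 to 3321 with 1 library left out, with 2031 without Foxo1Ctrl replicate 1 and 1854 without Foxo1TKO replicate 2. With a fold limit of 2 there were 2239 calls. Of the 5 genes tested and not called, 3 changed sign when 1 library was left out, and Serpinb6a and Serpinb9 did not. Gzma went to 0.36 without Foxo1Ctrl replicate 2 and to 0.11 without Foxo1TKO replicate 3 (range -0.66 to 0.36), Prf1 to 0.12 without Foxo1Ctrl replicate 1 (range -1.25 to 0.12), and Serpinb6b to 0.04 without Foxo1TKO replicate 3 (range -0.21 to 0.04). The log2 difference of the ratio of Gzma to Serpinb6b became 0.24 without Foxo1TKO replicate 3 and 0.19 without Foxo1Ctrl replicate 2 (range -0.63 to 0.24). That of Ctsl to Ctla2a was 3.39 with TMM-normalized counts in place of TPM. Serpinb1a fell by 2.92 with effective lengths and by 2.90 in limma on the deposited signal. The causes were not tested, other than as each alternative's construction shows.

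Replicate numbers are shared by the genotypes, but the sources used here do not say whether the libraries are paired. For cytometry of such cultures, the paper used a paired test with a pair per experiment. Same-numbered libraries had correlations of 0.462, 0.225 and -0.138 of their deviations from the genotype means, and Foxo1TKO replicate 3 correlated best with Foxo1Ctrl replicate 2. With a replicate block, 3318 genes were called instead of 3144, and 3573 with the GC correction and the replicate block. The replicate block changed no call of the 9 genes. Depth limits Gzmk and, in Foxo1TKO libraries, Serpinb1a and Ctla2b.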
